A study of Mus musculus with 6 samples.

Results

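The set described here is the tumor suppressor gene Trp53, which encodes p53, with 32 genes known as p53 regulators or p53 target genes, chosen by gene symbol in a table of 40840 genes. All 33 members were found. Of these, 32 had a mean of at least 1 TPM (a transcript level per length, scaled to the same total in each library) over the 6 libraries and entered the test, which covered 11643 genes. RNA-seq was performed on organoids, 3-dimensional Matrigel cultures of colon epithelium, from wt C57BL/6 mice. The DSS group was 3 mice given 2.5% dextran sodium sulfate, a compound that injures the colon epithelium, in drinking water in 2 courses of 5 days, the first at 10 weeks of age and the next after an interval of 2 weeks. Their organoids were started on day 14 after DSS. The control group was 3 mice without DSS, whose age was not listed, so that age and DSS cannot be told apart where the ages differed. RNA of both groups was taken on day 4 of culture, in a medium with L-WRN conditioned medium, serum and inhibitors of ROCK, the TGFβ receptor, p38 and GSK3. Each library came from a different mouse.

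p53 is a transcription factor that Mdm2 keeps scarce in unstressed cells by marking it for degradation. DNA damage and other stresses release p53 from Mdm2, and p53 then binds its response elements and raises genes of cell cycle arrest, apoptosis, DNA repair and metabolism, among them Mdm2 itself, which closes a feedback loop. In the intestine, p53 is known for its part in the response of crypt cells to radiation and as a gene often mutated in colon cancer, including cancer that arises in colitis.

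In the promoters of some members the repeat unit of the p53 response element was present as a match to the known p53 decamer consensus. RefSeq promoter windows, from 250 bases before to 50 bases after the gene start, were found by symbol for 25 of the 33 members. A gene could have more than 1 window and counted where any of them held a decamer. The 25 members had 36 windows, and the 27025 genes with a window had 32851, so more sequence per gene was searched in the members. Searched on both strands, 9 of the 25 (36%) held at least 1 decamer, against 9.55% of 27025 genes with such a window and 8.26% of 9327 tested genes. The 9 were Trp53, Mdm2, Ppm1d, Ccng1, Bax, Aen, Ei24, Sesn1 and Polk. Sequences are printed from 3 feedback genes and from Bax to show where the decamer lies in the genes whose levels follow. Each is a stretch on the strand of its gene, 5′ to 3′, with the decamer in capitals, in build GRCm38.p6.
Ccng1 at chr11:40755432-40755501, minus strand: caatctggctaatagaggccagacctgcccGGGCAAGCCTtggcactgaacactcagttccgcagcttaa
Mdm2 at chr10:117710905-117710974, minus strand: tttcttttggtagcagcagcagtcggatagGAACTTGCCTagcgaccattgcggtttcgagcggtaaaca
Bax at chr7:45467060-45467129, minus strand: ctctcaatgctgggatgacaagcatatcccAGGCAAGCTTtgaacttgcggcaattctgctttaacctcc
Ppm1d at chr11:85311092-85311161, plus strand: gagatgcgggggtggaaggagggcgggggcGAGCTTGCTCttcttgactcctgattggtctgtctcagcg

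Counted from the gene start, the decamer began at base −185 in Ccng1, −186 in Mdm2, −201 in Bax and −132 in Ppm1d. These matches are letters in a window, and binding of p53 was not measured. The decamer was found in 4 of the 9 members with a window that were lower in DSS organoids (44.4%) and in 5 of the 15 with a window that did not pass the test (33.3%).

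Members of the p53 set were mostly lower in DSS organoids, and none passed the test in the higher direction. In the limma fit across all genes, 10 of the 32 tested members fell in DSS organoids at a Benjamini-Hochberg adjusted p under 0.05, where 3.89% of all tested genes fell and 6.45% rose. The 10 were Trp53, its feedback genes Mdm2 and Ccng1, the nuclease gene Aen, the receptor gene Eda2r, the arrest and stress genes Phlda3, Plk2, Zmat3 and Gdf15, and the spindle gene Psrc1. The log2 fold change was below 0 in 25 of the 32 (78.1%), against 44.3% of all tested genes. The median log2 fold change was −0.58 over the members and 0.05 over all tested genes. Every DSS library was below every control library in 13 of the 32, where this held for 15.3% of all tested genes, and above every control library in 1, Sesn1, where this held for 21.1%. At an unadjusted p under 0.05, 15 members (46.9%) were lower and 1 (3.12%) was higher, beside 11.5% and 18.1% of all tested genes. The count of members that fell changed with the library left out. It was 12, 11 and 1 without DSS replicate 1, 2 and 3, and 1, 0 and 4 without control replicate 1, 2 and 3, in fits where 7.09%, 5.60%, 0.328%, 0.413%, 0.129% and 0.489% of all genes fell. Eda2r, which reached the minimum for testing through the control libraries, was the 1 member called without DSS replicate 3 and without control replicate 1. All 10 had log2 fold changes below 0 in each of these 6 fits. Among the other members, Bax and Polk fell without DSS replicate 1 (limma adjusted p = 0.0307 and 0.0309), where Sesn1 rose (adjusted p = 0.0478), and Trp53inp1, Pmaip1 and Tnfrsf10b fell without DSS replicate 2 (limma adjusted p = 0.0315, 0.0219 and 0.0175).

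**Figure D1:**
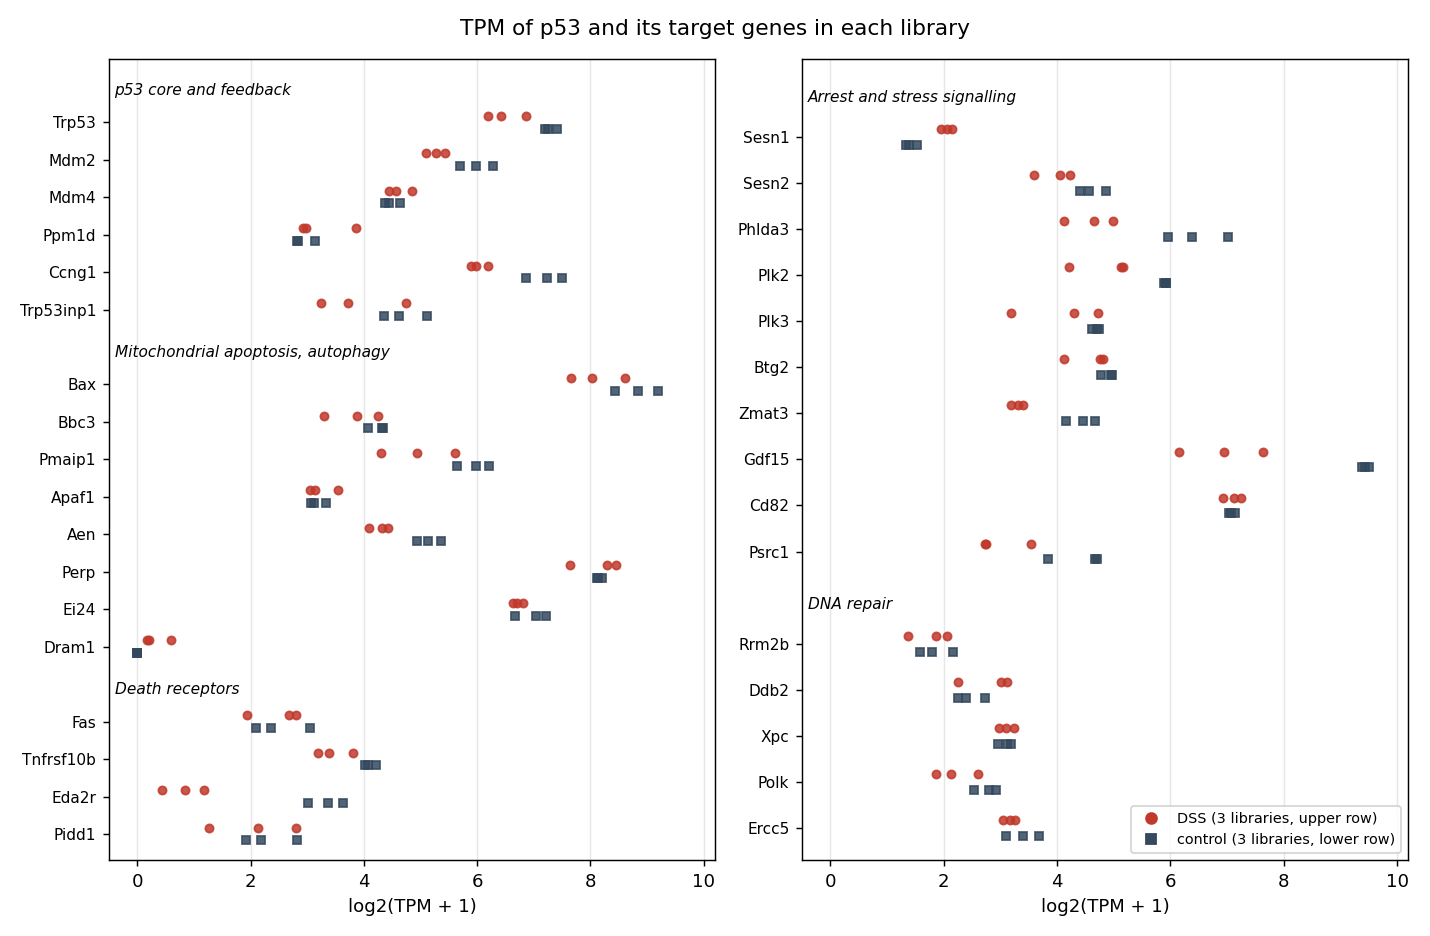
Level of each of the 33 members as log2(TPM + 1) on the horizontal axis, by role, with the 3 DSS libraries as red circles in the upper row and the 3 control libraries as squares in the lower row of each gene. Gdf15 and Eda2r show the widest gap between the groups, while Perp, Cd82 and Xpc overlap.

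The members differed widely in level. In control organoids 7 of the 33 averaged 100 TPM or more and 12 averaged under 10 TPM. Their summed level was 1381, 1530 and 1375 TPM in the DSS libraries, against 2810, 2575 and 2342 TPM in the control libraries, and the groups did not overlap. Gdf15 alone made up 5.06%, 12.9% and 8.85% of that sum in the DSS libraries and 23.6%, 26.8% and 30.8% in the control libraries. Without Gdf15 the sums were 1311, 1333 and 1254 TPM in DSS and 2146, 1886 and 1620 TPM in control libraries, again without overlap. In a bulk sample, fewer cells of a type and less RNA per cell cannot be told apart.

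Among p53 itself and its feedback genes, Trp53, Mdm2 and Ccng1 fell in DSS organoids, while Mdm4, Ppm1d and Trp53inp1 did not pass the test. Trp53 was 115.8, 84.3 and 71.9 TPM in the DSS libraries, against 150.8, 168.5 and 146.2 TPM in the control libraries. All 3 DSS values lay under the lowest control value. The means were 90.7 ± 22.6 TPM in DSS and 155.2 ± 11.8 TPM in control organoids (SD, n = 3 each). The log2 fold change, fitted on log2(TPM + 1), was −0.79 (SE 0.18 and limma adjusted p = 0.0413). Mdm2, the ubiquitin ligase that marks p53 for degradation, was 33.4, 42.0 and 37.9 TPM in DSS and 76.3, 62.4 and 50.7 TPM in control libraries. Its groups did not overlap either, and the highest DSS library stood just under the lowest control library. The log2 fold change of Mdm2 was −0.71 (SE 0.17 and limma adjusted p = 0.0469). Ccng1, which encodes the cyclin-like protein cyclin G1, was 71.9, 62.2 and 58.3 TPM in DSS and 179.9, 149.0 and 116.0 TPM in control libraries. Its log2 fold change was −1.18 (SE 0.18 and limma adjusted p = 0.0160), the largest fall in this group of 6.

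Mdm4, a relative of Mdm2 that binds p53 and restrains its activity, was 20.9, 27.7 and 22.7 TPM in DSS and 23.9, 19.8 and 20.7 TPM in control libraries. The values overlapped, with a log2 fold change of 0.14 (SE 0.14 and limma adjusted p = 0.571). The ratio of Mdm2 to Mdm4 in a library was 1.599, 1.52 and 1.67 in DSS and 3.19, 3.15 and 2.45 in control organoids. On the log2 scale it averaged 0.67 ± 0.07 in DSS and 1.54 ± 0.22 in control organoids (SD, n = 3 each), which is given as a description. Ppm1d, which encodes the phosphatase Wip1 that acts on p53 and on damage kinases, was 13.6, 6.93 and 6.57 TPM in DSS and 7.80, 6.14 and 6.04 TPM in control libraries (log2 fold change 0.33, SE 0.27 and limma adjusted p = 0.463). One DSS library stood above the other five. Trp53inp1, a nuclear protein that promotes p53-driven cell death, was 8.48, 25.8 and 12.1 TPM in DSS and 33.6, 23.6 and 19.6 TPM in control libraries. DSS replicate 2 lay within the control range and the other two lay below it, and the log2 fold change was −0.80 (SE 0.39 and limma adjusted p = 0.227). Trp53 and Mdm2 were close to the threshold. Trp53 kept its call without DSS replicate 1 and Mdm2 without DSS replicate 1 or 2, and neither passed in the other fits with 1 library left out, where adjusted p reached 0.164 for Trp53 and 0.169 for Mdm2. Ccng1 did not pass without DSS replicate 3, control replicate 1 or control replicate 2, with adjusted p up to 0.0866.

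**Figure D2:**
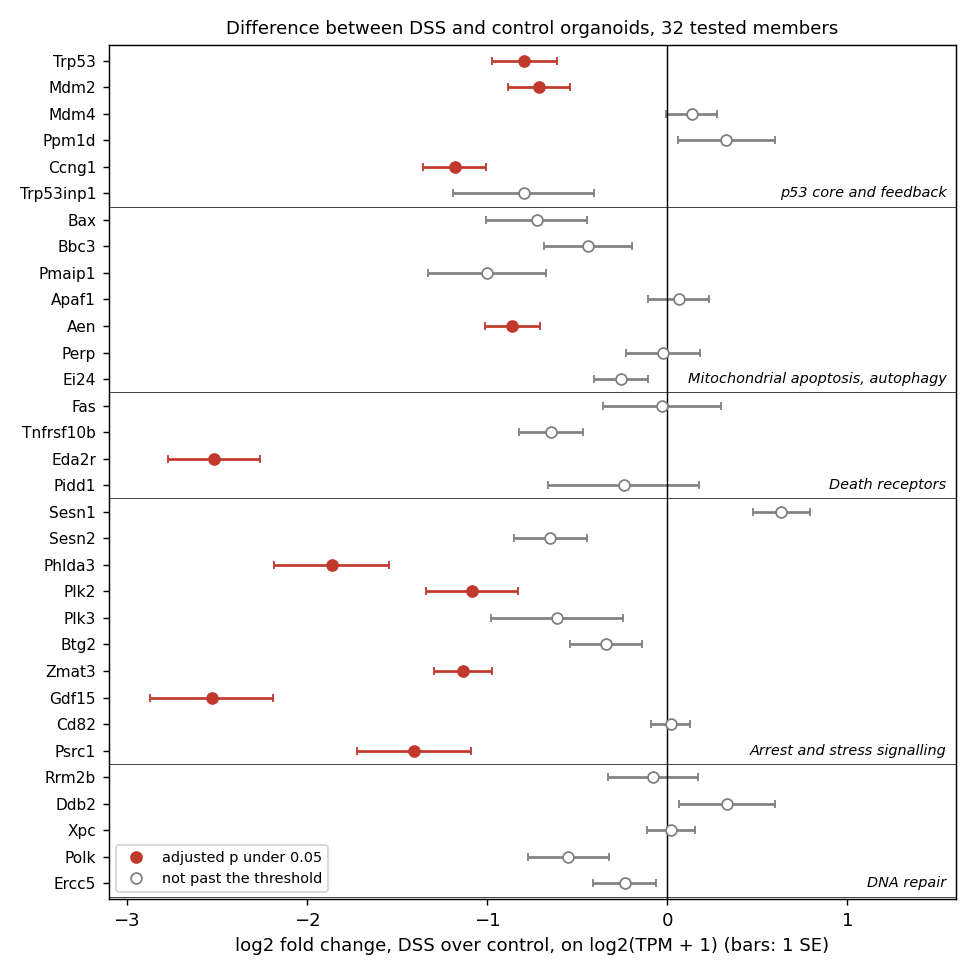
Log2 fold change (DSS minus control) of the 32 tested members from the limma fit on log2(TPM + 1), with bars of 1 SE, by role. Filled red points mark the 10 members with adjusted p under 0.05, all to the left of 0.

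Of the 7 tested genes of mitochondrial and other intracellular death routes, Aen fell in DSS organoids and the others did not pass the test. Aen, a nuclease that takes part in DNA fragmentation during apoptosis, was 20.6, 19.1 and 16.0 TPM in DSS and 40.1, 34.2 and 29.5 TPM in control libraries. The groups were apart, with means of 18.6 ± 2.3 TPM in DSS and 34.6 ± 5.3 TPM in control organoids (SD, n = 3 each) and a log2 fold change of −0.86 (SE 0.15 and limma adjusted p = 0.0236). This call was lost without DSS replicate 3 or any 1 control library, with adjusted p up to 0.114. Pmaip1, the BH3-only protein NOXA, was 18.8, 47.6 and 29.7 TPM in DSS and 49.3, 62.4 and 73.4 TPM in control libraries. Its groups did not overlap, but DSS replicate 2 reached nearly to the lowest control library, and the log2 fold change of −1.0 (SE 0.33) had a limma adjusted p of 0.0983. Bbc3, the BH3-only protein PUMA, was 8.86, 18.1 and 13.7 TPM in DSS and 19.1, 19.3 and 15.9 TPM in control libraries (log2 fold change −0.44, SE 0.24 and limma adjusted p = 0.277). Bax, the pore-forming member of the Bcl-2 family, was 389.0, 200.9 and 258.3 TPM in DSS and 581.0, 456.7 and 345.9 TPM in control libraries. DSS replicate 1 lay above the lowest control library, and the log2 fold change was −0.73 (SE 0.28 and limma adjusted p = 0.143).

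Apaf1, the core of the apoptosome, was between 7.29 and 10.6 TPM in DSS and between 7.43 and 9.03 TPM in control libraries (log2 fold change 0.06, SE 0.17 and limma adjusted p = 0.837). Perp, a membrane protein of desmosomes, was 199.3, 350.1 and 311.2 TPM in DSS and 294.3, 279.9 and 276.9 TPM in control libraries. The 3 DSS values lay on both sides of the control values, and the log2 fold change of −0.02 had a 95% interval from −0.51 to 0.47 (limma adjusted p = 0.951). Ei24, a protein of the endoplasmic reticulum, was between 98.5 and 111.2 TPM in DSS and between 101.2 and 147.4 TPM in control libraries (log2 fold change −0.26, SE 0.15 and limma adjusted p = 0.304). Dram1, a lysosomal protein of autophagy, was listed at 0.16, 0.51 and 0.13 TPM in DSS organoids and at 0 in each control library, and it was the 1 member under the minimum for testing.

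Of the 3 receptor genes and Pidd1, Eda2r fell in DSS organoids and the others did not pass the test. Eda2r, the receptor for the A2 form of ectodysplasin A, was 1.27, 0.35 and 0.80 TPM in DSS and 11.4, 9.32 and 7.05 TPM in control libraries. The lowest control library was 5.55 times the highest DSS library. The means were 0.807 ± 0.460 TPM in DSS and 9.26 ± 2.18 TPM in control organoids (SD, n = 3 each), with a log2 fold change of −2.51 (SE 0.26 and limma adjusted p = 0.00659). Its mean in DSS organoids was under 1 TPM, so it reached the minimum for testing through the control libraries, the 1 tested member of which this was true. As its DSS level was near the pseudocount of 1, this size depended on that setting, and it was −3.48 with a pseudocount of 0.1 and −1.29 with 5. Without control replicate 2 its adjusted p was 0.0509. Tnfrsf10b, the mouse receptor for the death ligand TRAIL, was 9.40, 13.0 and 8.18 TPM in DSS and 15.3, 17.6 and 15.9 TPM in control libraries. All 3 DSS libraries were lower than all 3 control libraries, and the log2 fold change was −0.65 (SE 0.18 and limma adjusted p = 0.0644). Fas, the receptor for Fas ligand, was 2.84, 5.41 and 5.99 TPM in DSS and 7.30, 4.14 and 3.29 TPM in control libraries, which overlapped (log2 fold change −0.03, SE 0.33 and limma adjusted p = 0.961). Pidd1, a death domain protein that activates caspase-2, was 5.96, 1.40 and 3.40 TPM in DSS and 6.04, 3.53 and 2.80 TPM in control libraries (log2 fold change −0.24, SE 0.42 and limma adjusted p = 0.746).

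The 10 genes of arrest and stress signalling held 5 of the 10 falls. Gdf15, a secreted stress cytokine of the TGFβ superfamily, was 69.8, 197.5 and 121.7 TPM in DSS and 664.0, 689.7 and 722.0 TPM in control libraries. The control libraries lay close together and the DSS libraries were all far below them, DSS replicate 1 the farthest. The means were 129.7 ± 64.2 TPM in DSS and 691.9 ± 29.0 TPM in control organoids (SD, n = 3 each), with a log2 fold change of −2.53 (SE 0.34 and limma adjusted p = 0.0127). Phlda3, a PH domain protein that restrains the kinase AKT, was 30.9, 24.1 and 16.5 TPM in DSS and 129.0, 82.7 and 60.8 TPM in control libraries. The spread was wide in both groups, but they did not overlap, and the log2 fold change was −1.86 (SE 0.32 and limma adjusted p = 0.0219). Zmat3, an RNA-binding zinc finger protein, was 9.52, 8.09 and 8.92 TPM in DSS and 24.5, 21.1 and 16.8 TPM in control libraries. The DSS libraries differed little among themselves, and the log2 fold change was −1.13 (SE 0.16 and limma adjusted p = 0.0139). Plk2, a polo-like kinase of the stress response, was 17.4, 34.1 and 34.7 TPM in DSS and 58.4, 59.8 and 59.6 TPM in control libraries, with a log2 fold change of −1.08 (SE 0.26 and limma adjusted p = 0.0454). Psrc1, a microtubule-binding protein of the mitotic spindle, was 10.7, 5.61 and 5.70 TPM in DSS and 25.2, 24.5 and 13.4 TPM in control libraries, with a log2 fold change of −1.41 (SE 0.32 and limma adjusted p = 0.0410). Psrc1 was lower in DSS organoids, the opposite side from the proliferation genes described further on.

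Of these 5, none passed without DSS replicate 3, control replicate 1 or control replicate 2, with adjusted p up to 0.0711 for Gdf15, 0.0991 for Phlda3, 0.0827 for Zmat3, 0.161 for Plk2 and 0.160 for Psrc1 over all alternatives. Phlda3 and Zmat3 passed without control replicate 3, while Gdf15, Plk2 and Psrc1 did not. Psrc1 also lost its call without DSS replicate 2. Each of the 5 was lower in 3 of 3 DSS libraries than in any control library.

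The 2 sestrin genes, whose proteins restrain mTORC1 under stress, stood on opposite sides. Sesn1 was 3.16, 3.42 and 2.87 TPM in DSS and 1.88, 1.53 and 1.62 TPM in control libraries, so that each DSS library was above each control library. Its log2 fold change of 0.63 (SE 0.16) had a limma adjusted p of 0.0528. Sesn2 was 11.03, 17.8 and 15.7 TPM in DSS and 28.1, 22.6 and 20.1 TPM in control libraries, each DSS library below each control library, with a log2 fold change of −0.65 (SE 0.20 and limma adjusted p = 0.0907). Neither passed the test. The ratio of Sesn2 to Sesn1 was 3.49, 5.20 and 5.46 in DSS and 15.0, 14.8 and 12.4 in control libraries. On the log2 scale it averaged 2.21 ± 0.35 in DSS and 3.81 ± 0.15 in control organoids (SD, n = 3 each). As the 2 genes were paired for lying on opposite sides, a test of this ratio could not decide anything, and none is given.

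Plk3, another polo-like kinase, was 8.12, 25.5 and 18.7 TPM in DSS and 23.4, 25.0 and 25.8 TPM in control libraries (log2 fold change −0.61, SE 0.37 and limma adjusted p = 0.310). DSS replicate 2 was within the control range. Btg2, an antiproliferative gene of the early stress response, was 27.2, 26.0 and 16.4 TPM in DSS and 29.98, 30.4 and 26.4 TPM in control libraries (log2 fold change −0.34, SE 0.20 and limma adjusted p = 0.305). Cd82, a tetraspanin known as a metastasis suppressor, was 121.4, 150.5 and 138.2 TPM in DSS and 140.7, 133.1 and 129.7 TPM in control libraries, with a log2 fold change of 0.02 (SE 0.11 and limma adjusted p = 0.925).

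None of the 5 DNA repair members passed the test, and their median log2 fold change was −0.08. Xpc, which recognizes damage in nucleotide excision repair, was 6.89, 8.43 and 7.55 TPM in DSS and 8.10, 6.74 and 7.65 TPM in control libraries. The values overlapped, and the log2 fold change of 0.02 had a 95% interval from −0.30 to 0.34 (limma adjusted p = 0.934). Ddb2, its partner in the recognition of ultraviolet damage, was 7.71, 3.74 and 7.05 TPM in DSS and 3.78, 5.65 and 4.24 TPM in control libraries (log2 fold change 0.33, SE 0.27 and limma adjusted p = 0.450). Ercc5, an endonuclease of the same route, was between 7.31 and 8.53 TPM in DSS and between 7.54 and 11.9 TPM in control libraries (log2 fold change −0.24, SE 0.18 and limma adjusted p = 0.410). Rrm2b, the p53-inducible subunit of ribonucleotide reductase, was between 1.59 and 3.16 TPM in DSS and between 2.00 and 3.48 TPM in control libraries (log2 fold change −0.08, SE 0.25 and limma adjusted p = 0.863). Polk, a polymerase that copies past damaged bases, was 5.08, 3.37 and 2.65 TPM in DSS and 6.59, 5.92 and 4.8 TPM in control libraries (log2 fold change −0.55, SE 0.22 and limma adjusted p = 0.160). In GENCODE M21, 23.8% of the exonic bases of Ddb2 overlap Acp2 on the opposite strand, 12.2% of those of Bax overlap Gm45808 on the same strand, and 8.04% of Rrm2b, 6.66% of Ei24 and 3.32% of Plk3 overlap other genes. By the kit name the strand was taken as unmarked, so the values of these 5 genes may hold reads of their neighbours. The 10 members that fell have no such overlap.

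The groups of members by role differed in how many fell. The count was 3 of 6 in p53 and feedback genes, 1 of 7 in intracellular death routes, 1 of 4 in receptors with Pidd1, 5 of 10 in arrest and stress signalling and 0 of 5 in DNA repair, beside the 3.89% of all tested genes given above. The medians of the log2 fold change were −0.75, −0.44, −0.44, −0.87 and −0.08 in the same order. A difference between the roles was not tested.

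**Figure D3:**
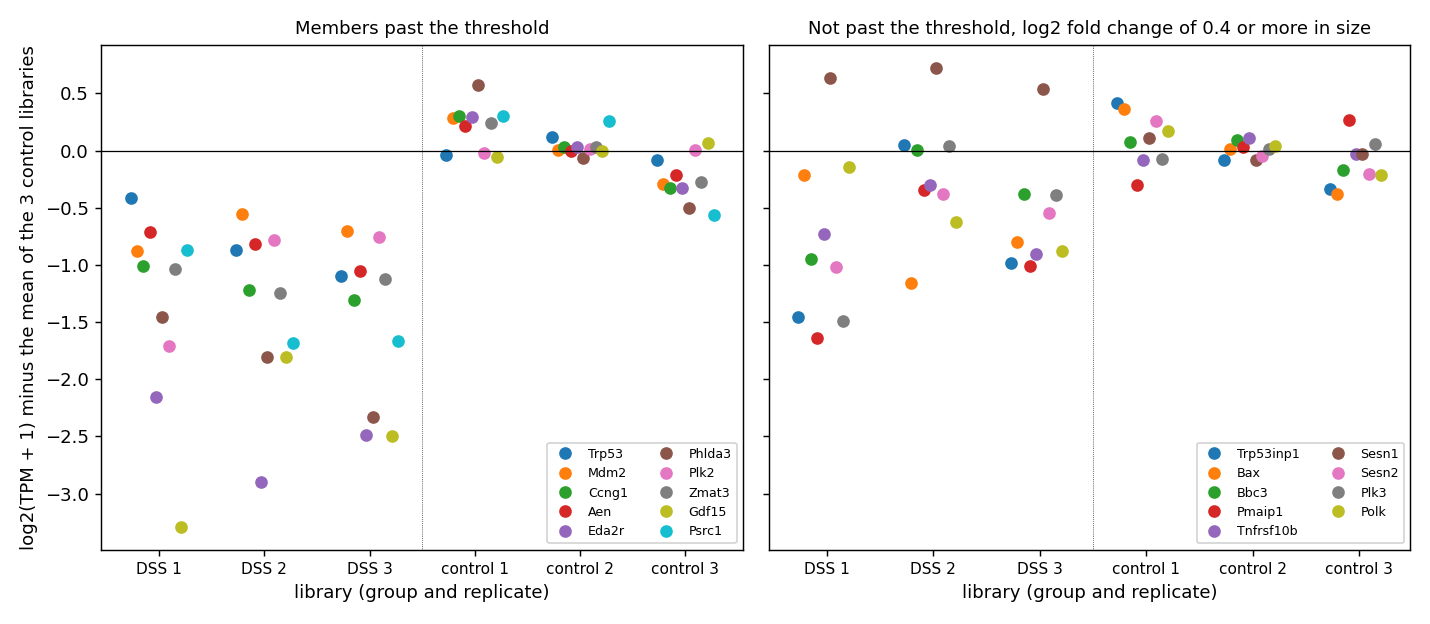
Log2(TPM + 1) of each library minus the mean of the 3 control libraries, with the 10 members that fell on the left and, on the right, the 9 other tested members with a log2 fold change of at least 0.4 in size. Colour marks the gene, and in each panel the DSS libraries stand left and the control libraries right of the dotted line. In the right panel, DSS libraries of Bax, Bbc3, Plk3, Polk and Trp53inp1 reach into the control range.

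The 3 DSS libraries did not share 1 order across the members. Of the 10 members that fell, Mdm2, Plk2 and Gdf15 were lowest in DSS replicate 1, Eda2r, Zmat3 and Psrc1 in DSS replicate 2, and Trp53, Ccng1, Aen and Phlda3 in DSS replicate 3. Over the 32 tested members, DSS replicate 1, 2 and 3 was the lowest of the group in 14, 8 and 10, which is 43.8%, 25.0% and 31.2%, beside 47.3%, 36.3% and 16.0% of all tested genes. The median member deviated from the mean of the 3 control libraries by −0.54, −0.32 and −0.63 on the log2 scale in the DSS libraries and by 0.16, 0.01 and −0.15 in the control libraries. All 3 DSS libraries were thus below all 3 control libraries in this median.

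Other genes of the p53 pathway were read from lists that held none of the 33 members. Of 28 tested further p53 targets, 0 fell and 4 rose in DSS organoids at a limma adjusted p under 0.05, beside 3.89% and 6.45% of all tested genes, and the median log2 fold change was 0.09. At an unadjusted p under 0.05, 5 were lower (17.9%) and 7 higher (25%), beside 11.5% and 18.1% of all tested genes. Every DSS library was below every control library in 6 of the 28 and above in 7. Over all tested genes these shares were 15.3% and 21.1%. The 4 that rose past the threshold were Trp53i11, a p53-induced gene, the lysosomal fucosidase gene Fuca1, the xylulose reductase gene Dcxr and Cmbl, which encodes a hydrolase. Trp53i11 was 54.9, 37.6 and 46.2 TPM in DSS and 25.4, 19.4 and 15.4 TPM in control libraries, with a log2 fold change of 1.18 (SE 0.21 and limma adjusted p = 0.0242). Fuca1 was 138.0, 147.2 and 146.4 TPM in DSS and 97.6, 86.1 and 90.2 TPM in control libraries (log2 fold change 0.65, SE 0.09 and limma adjusted p = 0.0139). The groups of both genes were apart, with DSS on the higher side. The log2 fold change was 0.67 for Dcxr (SE 0.10 and limma adjusted p = 0.0173) and 0.56 for Cmbl (SE 0.10 and limma adjusted p = 0.0242). None of the 4 passed without DSS replicate 3 or without any 1 control library. Of the 28, 3 fell and 8 rose without DSS replicate 1, where 7.09% of all genes fell and 14.6% rose. Without DSS replicate 2, 3 fell and 5 rose, where 5.6% of all genes fell and 10.7% rose. Cdkn1a, the cell cycle inhibitor p21 and a main target of p53, was 129.8, 558.8 and 315.5 TPM in DSS and 704.4, 656.5 and 585.3 TPM in control libraries. Each DSS library was below each control library, with DSS replicate 2 close to the lowest control library. Its log2 fold change of −1.18 (SE 0.48) had a 95% interval from −2.32 to −0.05 and did not pass (limma adjusted p = 0.157).

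Among 23 tested modifiers of p53, 1 fell and 1 rose in DSS organoids, 4.35% in each direction and near the 3.89% and 6.45% of all tested genes. Otub1, a deubiquitinase that stabilizes p53, was 84.2, 97.7 and 83.2 TPM in DSS and 134.8, 134.0 and 120.3 TPM in control libraries, with a log2 fold change of −0.55 (SE 0.11 and limma adjusted p = 0.0282). Cdkn2a, whose product Arf binds Mdm2 and whose product p16 inhibits Cdk4, was 3.29, 4.19 and 3.40 TPM in DSS and 0.20, 0 and 0.63 TPM in control libraries, with a log2 fold change of 1.88 (SE 0.24 and limma adjusted p = 0.0112). Cdkn2a averaged under 1 TPM in control organoids and reached the minimum for testing through the DSS libraries, and with a minimum mean of 5 TPM 0 modifiers rose. Levels per gene do not tell its products apart. Without DSS replicate 3, control replicate 1 or control replicate 2, 0 modifiers passed in either direction, and without control replicate 3, 0 fell and 1 rose. Without DSS replicate 1, 3 fell and 4 rose, where 7.09% and 14.6% of all genes did. Of 16 damage kinases and their partners, 0 passed in either direction, with a median log2 fold change of 0.38. At an unadjusted p under 0.05, 0 were lower and 5 higher (31.2%), beside 11.5% and 18.1% of all tested genes. DSS replicate 2 was the lowest DSS library in 11 of the 16 (68.8%), beside 36.3% of all tested genes. H2ax, the histone variant that damage kinases phosphorylate, was 120.2, 45.5 and 83.0 TPM in DSS and 28.1, 30.1 and 33.7 TPM in control libraries (log2 fold change 1.31, SE 0.33 and limma adjusted p = 0.0520). Of the 16, 1 rose without DSS replicate 1 and 5 without DSS replicate 2, in fits where 14.6% and 10.7% of all genes rose.

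Cell cycle genes that p53 is known to lower through p21 and the DREAM repressor complex moved the other way. Of 20 such genes, 13 rose in DSS organoids at a limma adjusted p under 0.05 and 0 fell, beside 6.45% and 3.89% of all tested genes. The list was chosen with earlier results of these data known, so its counts are a description and not an independent test. Their median log2 fold change was 1.66. In all 20 every DSS library was above every control library, beside 21.1% of all tested genes, and in all 20 DSS replicate 2 was the lowest of the 3 DSS libraries. Mki67, a marker of cycling cells, was 58.1, 22.6 and 46.7 TPM in DSS and 10.3, 11.5 and 13.1 TPM in control libraries, with a log2 fold change of 1.69 (SE 0.33 and limma adjusted p = 0.0289). The other 12 were the cyclin genes Ccna2, Ccnb1 and Ccnb2, the mitotic regulators Cdc20, Cdc25c, Aurka and Nek2, the transcription factor gene Foxm1, the centromere and spindle genes Cenpa, Cenpf and Tpx2, and Ube2c, a ubiquitin-conjugating enzyme of mitosis. The count that rose was 13, 20 and 0 without DSS replicate 1, 2 and 3, in fits where 14.6%, 10.7% and 0.56% of all genes rose. It was 0 without control replicate 1, 2 or 3, where 0.792%, 0.249% and 0.781% of all genes rose. It was 2 with no filter on low values and 8 with quantile normalization, where 2.27% and 4.84% of all genes rose. The part of cell division in the falls of the members was not tested.

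**Figure D4:**
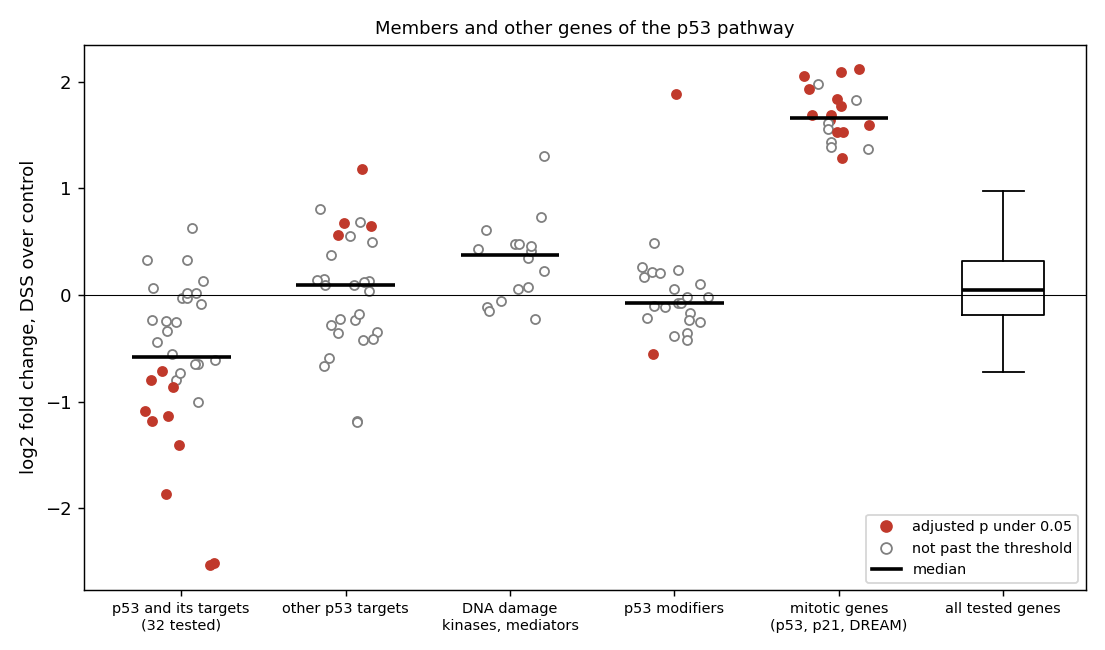
Log2 fold change (DSS minus control) of every tested gene in the p53 set and in 4 further p53 pathway lists, 1 point per gene, with the median of each list as a bar. The box shows the quartiles of all tested genes with whiskers at percentiles 5 and 95, and the medians run from −0.58 in the members to 1.66 in the DREAM cell cycle genes.

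Markers of other cell types were checked beside these results. The 10 epithelial markers summed to 13744, 20290 and 18658 TPM in DSS and 18056, 19164 and 19496 TPM in control libraries, which overlapped. The keratins Krt8, Krt18 and Krt19 carry much of that sum. Their log2 fold changes were −0.29, −0.48 and −0.38 (limma adjusted p = 0.484, 0.245 and 0.169). Of the 10 markers, 6 had log2 fold changes below 0 (60%), beside 44.3% of all tested genes, with a median of −0.17. Every DSS library was below every control library in 1, Krt19, and above in 3, beside 15.3% and 21.1% of all tested genes. The adhesion gene Epcam and the intestinal transcription factor gene Cdx2 rose in DSS organoids (log2 fold change 0.52 and 1.03, limma adjusted p = 0.0311 and 0.00553). That made 2 of the 10 that rose, where 6.45% of all tested genes did. The 14 immune markers summed to 256.6, 352.0 and 207.9 TPM in DSS and 63.3, 55.6 and 75.0 TPM in control libraries, without overlap. Cd14 made up most of the control sums, at 86.8, 72.6 and 54.3 TPM in DSS and 52.6, 50.7 and 69.8 TPM in control libraries. Its values overlapped (log2 fold change 0.29, limma adjusted p = 0.389). Lyz2, the lysozyme gene of macrophages, made up most of the DSS sums. It was 145.3, 226.8 and 122.6 TPM in DSS and 5.19, 2.04 and 1.09 TPM in control libraries. Of the 14, 8 were under the minimum for testing, and Tyrobp, Fcer1g and Itgam reached it through the DSS libraries, so no count of calls is given for this list. The T cell marker Cd3e was at 0 in every library. The 12 fibroblast and muscle markers summed to between 7.03 and 18.3 TPM in DSS and between 1.62 and 4.19 TPM in control libraries, with Col1a2, Col3a1 and Lum at 0 throughout. Vim made up most of the sum in DSS libraries, at 5.92, 15.9 and 10.19 TPM in DSS and 0.67, 1.51 and 0.39 TPM in control libraries, and rose (log2 fold change 2.60, limma adjusted p = 0.0139), having reached the minimum for testing through the DSS libraries. The 6 endothelial markers and the 7 nerve and glia markers summed to under 2 TPM in each library. The part of immune cells in the falls of the members was not tested.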

How the data were processed

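RNA-seq libraries (NEBNext Ultra II RNA) of organoids from 3 DSS-treated and 3 control mice were used. The authors deposited 1 table of TPM values. In the submitters' processing notes are Trim Galore 0.6.7, cutadapt 3.5, STAR 2.7.7a and 2.7.10a, RSEM 1.3.1 and build GRCm39. TPM keeps no sequencing depth, so depth was unknown and no counting interval was given. Each library listed 11328 to 11607 genes at 1 TPM or more. No pair of libraries shared more than 75 equal values among the 11643 tested genes.

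Values were analysed as log2(TPM + 1), and fold changes are on that scale, which understates changes of low genes. Genes averaging 1 TPM or more over the 6 libraries were fitted with limma 3.58.1 in R 4.3.3 (empirical Bayes with trend, two-sided), with Benjamini-Hochberg adjustment over all 11643. The fit was tested on simulated data. Ratios of 2 genes are given as descriptions, since an exact permutation over the 20 arrangements of the libraries cannot give a p under 0.1.

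The members and lists were chosen with earlier results of these data known. All members, Cdkn1a and the genes of the other lists past the threshold were named, and H2ax was chosen after its values were seen. Promoter sequences are from RefSeq (GRCm38.p6, matched by symbol), and no coordinate was carried to GRCm39. Perp, Rrm2b, Xpc, Pmaip1, Ddb2, Zmat3, Tnfrsf10b and Trp53inp1 had no matched window. Alternatives were other pseudocounts, filters and scalings, no trend, a replicate block and leaving out each library.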

Additional observations from a re-analysis of the deposited data

How the results depend on the processing

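Of the 14 alternatives, 5 (pseudocounts of 0.1 and 5, a minimum mean of 5 TPM, median-ratio scaling and quantile normalization) left the 10 members that fell past the threshold and added none. The count was 6 with no filter, 7 with no trend and 7 with a replicate block, where 1.51%, 3.21% and 1.59% of all genes fell. It ranged from 0 to 12 with 1 library left out. Trp53, Mdm2 and Plk2 lost their calls under each of those first 3. Members that rose numbered 0, but 1 (Sesn1) with no trend, and 0 to 1 with 1 library left out, again Sesn1, without DSS replicate 1. The median log2 fold change of the members was −0.42 with a pseudocount of 5, against −0.58. The signs of 25 of the 32 members held in all alternatives. Of the other 7, Apaf1 was −0.058 and Cd82 −0.019 under quantile normalization, and Xpc −0.11. Under median-ratio scaling Cd82 was −0.041 and Xpc −0.032. With 1 library left out the log2 fold change ranged from −0.084 to 0.16 for Apaf1, −0.19 to 0.22 for Perp, −0.23 to 0.24 for Fas, −0.61 to 0.16 for Pidd1, −0.053 to 0.10 for Cd82, −0.23 to 0.12 for Rrm2b and −0.046 to 0.083 for Xpc. With a replicate block, 6 in place of 13 DREAM cell cycle genes rose and 0 in place of 1 modifier fell. In that fit 2.97% of all genes rose and 1.59% fell. The causes were not tested. With the numbers as pairs, same-numbered libraries had deviations correlated at 0.2, 0.031 and 0.035, and differently numbered ones at −0.18 to 0.15. These values cannot tell whether the numbers mark pairs. The main fit did not take them as pairs. The split of all genes was 453 lower and 751 higher as deposited, 588 and 621 with median-ratio scaling and 606 and 564 with quantile normalization. Depth was unknown, and 3 libraries a group limit every call.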

Other observations

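Control libraries differed among themselves in the members. Control replicate 1 was the highest of the 3 in 22 of the 32 tested members (68.8%), beside 45.1% of all tested genes, and control replicate 3 was the lowest in 22 (68.8%), beside 43.5%. Among the 10 members that fell in DSS organoids, control replicate 1 was the highest in 7 and control replicate 3 the lowest in 8. The ratio of Bax to Perp was 1.95, 0.574 and 0.830 in the DSS libraries and 1.97, 1.63 and 1.25 in the control libraries, so that DSS replicate 1 stood with the controls and the other two DSS libraries below them.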
